A study of Mus musculus with 6 samples.

Results

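The peaks described here are all H3K9me3 peaks of mouse chromosome 7, apart from those in the stretch from 3 to 8 Mb near the centromere and those in the last 5 Mb. They were chosen by position, and the chromosome itself was chosen because the ratio of its covered length between the conditions was the highest among the autosomes in the same 4 libraries. Of 13265 peaks on chromosome 7, 12337 lay in the stretch chr7:8000001-140441459 (mm10) and 928 were left out, against 207294 peaks in the whole series. The mark is histone H3 trimethylated at lysine 9, measured by ChIP-seq (sequencing of immunoprecipitated chromatin) in neural stem cells (NSCs) of the mouse cerebral cortex. The cells came from fetal brains of wild-type C57BL/6J mice and were infected in culture with a lentivirus that carried a short hairpin RNA, either scrambled (shCTR) or directed at PHF8 (shPHF8). All 4 ChIP libraries share the lentiviral infection and the growth in EGF and FGF, each condition has 2 libraries, and the labels give the hairpin of both shPHF8 libraries the same name. The 2 inputs, 1 per condition, were not used here. The deposited lists give the positions of broad peaks and no height, so a result is a length of chromosome covered by peaks, and the level of Phf8 RNA and the markers of NSCs cannot be read from them. In such bulk material, more cells that carry the mark and a wider mark in each cell cannot be told apart. Nothing says that the libraries of a condition came from separate cultures, so their spread may be technical.

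H3K9me3 marks constitutive heterochromatin at the repeats near centromeres, and in the chromosome arms it lies on transposons, on clusters of zinc finger genes and on the methylated allele of imprinted loci. SUV39H and SETDB1 enzymes write it, the latter brought to DNA by KRAB zinc finger proteins through the corepressor TRIM28, and HP1 proteins bind it. PHF8 is a histone demethylase that removes methyl groups from lower methylation states of H3K9, and from H3K27 and H4K20, mostly at active start sites. Mouse chromosome 7 is rich in tandem families of related genes, among them vomeronasal, olfactory and Mas-related receptors, cytochrome P450 enzymes, secretoglobins, kallikreins, Nlrp genes and zinc finger genes, and it holds the imprinted Prader-Willi/Angelman region.

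Sequences upstream of 6 start sites are shown because peaks came to cover, or ceased to cover, these starts. Each is the 250 bases before the RefSeq start on GRCm38.p6 (the assembly also called mm10), 5′ to 3′ in the direction of the gene, with each CG dinucleotide in capitals. CG is the same on both strands, and 92.1% of the 32851 windows of this length in the RefSeq table hold at least 1. The starts of Cyp2b19 (chr7:26756892-26757141, plus strand), a cytochrome P450 of the skin, Nlrp5 (chr7:23385639-23385888, plus strand), a maternal factor of the oocyte, and Scgb2b3 (chr7:31362101-31362350, minus strand), a secretoglobin, were covered in both shPHF8 libraries and in neither shCTR library:
Cyp2b19: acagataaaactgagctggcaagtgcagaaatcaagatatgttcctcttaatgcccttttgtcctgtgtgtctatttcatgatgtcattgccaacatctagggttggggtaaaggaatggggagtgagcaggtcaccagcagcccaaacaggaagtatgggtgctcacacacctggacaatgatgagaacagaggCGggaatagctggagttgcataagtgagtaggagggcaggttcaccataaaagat
Nlrp5: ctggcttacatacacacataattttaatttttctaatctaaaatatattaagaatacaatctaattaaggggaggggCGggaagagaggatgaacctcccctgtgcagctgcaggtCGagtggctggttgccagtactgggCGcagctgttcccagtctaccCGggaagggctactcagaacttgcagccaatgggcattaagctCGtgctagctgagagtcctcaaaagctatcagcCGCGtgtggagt
Scgb2b3: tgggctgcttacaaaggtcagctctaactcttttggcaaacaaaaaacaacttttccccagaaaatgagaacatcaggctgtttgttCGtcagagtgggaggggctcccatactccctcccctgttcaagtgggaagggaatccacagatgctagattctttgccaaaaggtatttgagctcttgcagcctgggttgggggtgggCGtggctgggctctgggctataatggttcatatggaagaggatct
The starts of Spint2 (chr7:29281978-29282227, minus strand), a serine protease inhibitor, P4ha3 (chr7:100285270-100285519, plus strand), a prolyl hydroxylase of collagen, and Akip1 (chr7:109703428-109703677, plus strand), a partner of protein kinase A, were covered in both shCTR libraries and in neither shPHF8 library:
Spint2: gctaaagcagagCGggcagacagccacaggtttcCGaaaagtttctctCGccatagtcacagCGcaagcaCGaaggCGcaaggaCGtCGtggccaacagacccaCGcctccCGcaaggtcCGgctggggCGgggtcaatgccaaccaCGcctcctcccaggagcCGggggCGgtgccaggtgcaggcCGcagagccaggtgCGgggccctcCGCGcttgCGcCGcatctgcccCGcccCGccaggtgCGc
P4ha3: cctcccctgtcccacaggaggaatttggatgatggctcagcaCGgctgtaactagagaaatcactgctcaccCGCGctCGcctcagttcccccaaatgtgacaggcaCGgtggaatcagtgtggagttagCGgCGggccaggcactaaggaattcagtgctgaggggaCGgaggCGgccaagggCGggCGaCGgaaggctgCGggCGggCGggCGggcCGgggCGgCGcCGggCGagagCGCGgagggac
Akip1: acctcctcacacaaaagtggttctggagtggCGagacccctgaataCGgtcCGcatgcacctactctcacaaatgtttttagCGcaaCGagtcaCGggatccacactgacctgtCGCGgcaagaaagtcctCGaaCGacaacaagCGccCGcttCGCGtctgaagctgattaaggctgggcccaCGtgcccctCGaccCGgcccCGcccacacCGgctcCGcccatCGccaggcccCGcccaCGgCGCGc
These windows hold 1, 7 and 2 CG dinucleotides in Cyp2b19, Nlrp5 and Scgb2b3, and 24, 23 and 25 in Spint2, P4ha3 and Akip1. The lost starts shown are the 3 with the most CG among 9 with a RefSeq window, which ranged from 1 to 25 with a median of 13.0. The 10 gained starts with a window ranged from 0 to 13 with a median of 2.5, and those shown are not at either end. The sequences shown therefore differ more in CG than the gained and lost starts do by their medians.

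Peaks covered 9.12 and 9.33 Mb of this stretch in shCTR replicates 1 and 2, and 13.5 and 12.4 Mb in shPHF8 replicates 1 and 2. Both shPHF8 libraries lay above both shCTR libraries, and the mean rose from 9.23 to 12.9 Mb, a ratio of 1.40. Over the other 18 autosomes, with the same stretches left out, the ratio was 1.32, and single chromosomes ranged from 1.24 to 1.40. Chromosomes 17 and 13 came next, at 1.40 and 1.39. In Mb, chromosome 5 rose most, by 4.13 Mb against 3.71 Mb on chromosome 7. Against the mean of the shCTR libraries, chromosome 7 stood at 1.46 in shPHF8 replicate 1 and 1.34 in shPHF8 replicate 2 and was second in each, behind chromosome 13 in the former and chromosome 17 in the latter. The ratio of chromosome 7 was 1.07 times that of the other autosomes, 1.05 with shPHF8 replicate 1 alone and 1.08 with shPHF8 replicate 2 alone. Chromosome 7 held 6.39 and 6.42% of the covered autosomal length in the shCTR libraries and 6.73 and 6.87% in the shPHF8 libraries, and such a share was higher in both shPHF8 libraries for 6 of the 19 autosomes and lower in both for 6. The ratio of covered length chose this chromosome, so these values and those that follow from the same contrast are given as a description with no test, and 2 libraries against 2 allow no exact two-sided permutation p below 0.333.

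**Figure D1:**
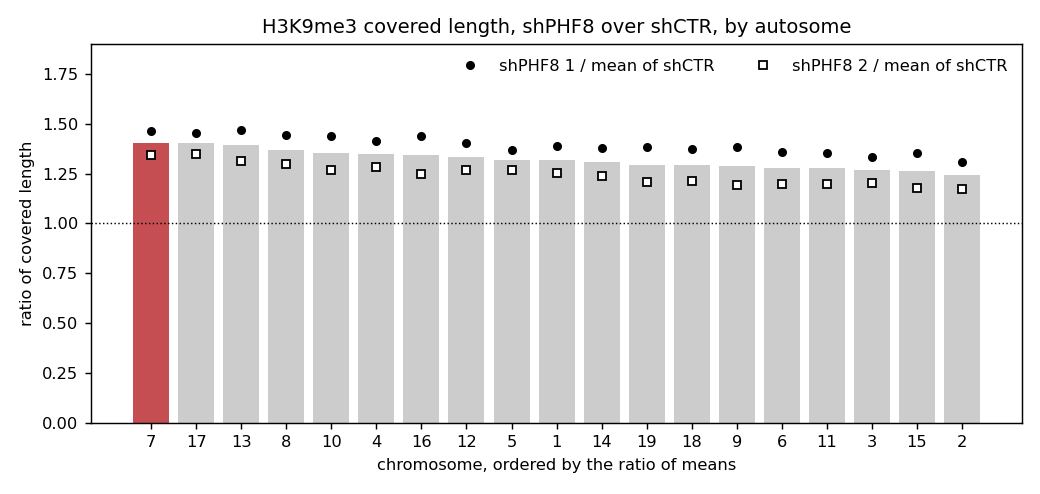
Ratio of H3K9me3 covered length between shPHF8 and shCTR for each of the 19 autosomes. Bars are ratios of the means, filled circles and open squares are shPHF8 replicates 1 and 2 over the shCTR mean, and the dotted line marks no change. Chromosome 7 (red) is at 1.40, beside chromosome 17 at 1.40 and chromosome 13 at 1.39.

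Peaks also changed in number and width. There were 3115 and 3143 peaks in the shCTR libraries, 2666 in shPHF8 replicate 1 and 3413 in shPHF8 replicate 2, so the number was lowest and highest within the shPHF8 pair. The median peak was 2400 bp wide in each shCTR library, and it reached 4200 bp in the first and 3000 bp in the second shPHF8 replicate. shPHF8 replicate 1 had the widest peaks on all autosomes together as well, with a median of 4200 bp on the other 18. Peaks of at least 20 kb numbered 2 and 7 in shCTR and 20 and 16 in shPHF8. The widest peak of shPHF8 replicate 1 (chr7:36315801-36363800, 48000 bp) and that of shPHF8 replicate 2 (chr7:36011801-36063600, 51800 bp) both lay in the stretch without coding genes before Tshz3 described further on, while those of shCTR, of 24000 and 32200 bp, lay elsewhere. Without shPHF8 replicate 1 the ratio of covered length was 1.34 on chromosome 7 and 1.24 on the other autosomes.

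In 1 Mb windows, the rise was spread over most of the chromosome, and the windows with the largest rise lay at Tshz3 and Zfp536, at Mgmt and in clusters of related genes. A window is called higher when its covered bases in each shPHF8 library exceeded those in each shCTR library, and lower in the opposite case, and its rise is the difference of the means. Of 133 windows, 3 held no peak in any library. Of the other 130, 92 were higher (70.8%) where 65.9% of windows were on the other autosomes, and 7 were lower (5.38%, against 5.77%). With every library scaled to the same covered length over the 19 autosomes, 57 windows were higher (43.8%) against 28.7% elsewhere, and 33 were lower (25.4%) against 27.5%. The median rise was 20.8 kb per window on chromosome 7 and 13.5 kb on the other autosomes. The 20 windows with the largest rise held 49.2% of the net rise of the chromosome, and 6 of its windows were among the 50 largest rises of 2226 autosomal windows, of which chromosome 7 has 5.98%. In 30 kb bins, 857 of the 2614 with a peak were higher (32.8%), against 29.8% elsewhere, and 253 were lower (9.68%), against 8.73%. Scaled in the same way, 553 bins were higher (21.2%, against 17.9% elsewhere) and 502 were lower (19.2%, against 19.9%).

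In blocks of 10 Mb, the stretch from 30 to 40 Mb rose from 1226 and 1186 kb in shCTR to 2072 and 1986 kb in shPHF8, the third largest rise of 245 autosomal blocks, and held 22.2% of the rise of the chromosome. The blocks from 10 to 20 Mb (499 and 448 kb against 889 and 901 kb, a ratio of 1.89) and from 20 to 30 Mb (761 and 766 kb against 1194 and 1187 kb, a ratio of 1.56) held 11.4 and 11.5%. The block from 50 to 60 Mb had the largest ratio of all autosomal blocks, 2.45, on a low base of 132 and 104 kb in shCTR, with 268 and 309 kb in shPHF8. The middle of the chromosome moved less. The ratios from 80 to 90 Mb and from 90 to 100 Mb were 1.18 and 1.13, and from 110 to 120 Mb the groups overlapped, at 882 and 981 kb in shCTR and 1086 and 977 kb in shPHF8. At the far end, from 130 to 140 Mb, covered length rose from 1097 and 1118 kb to 1797 and 1419 kb, 13.5% of the rise.

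**Figure D2:**
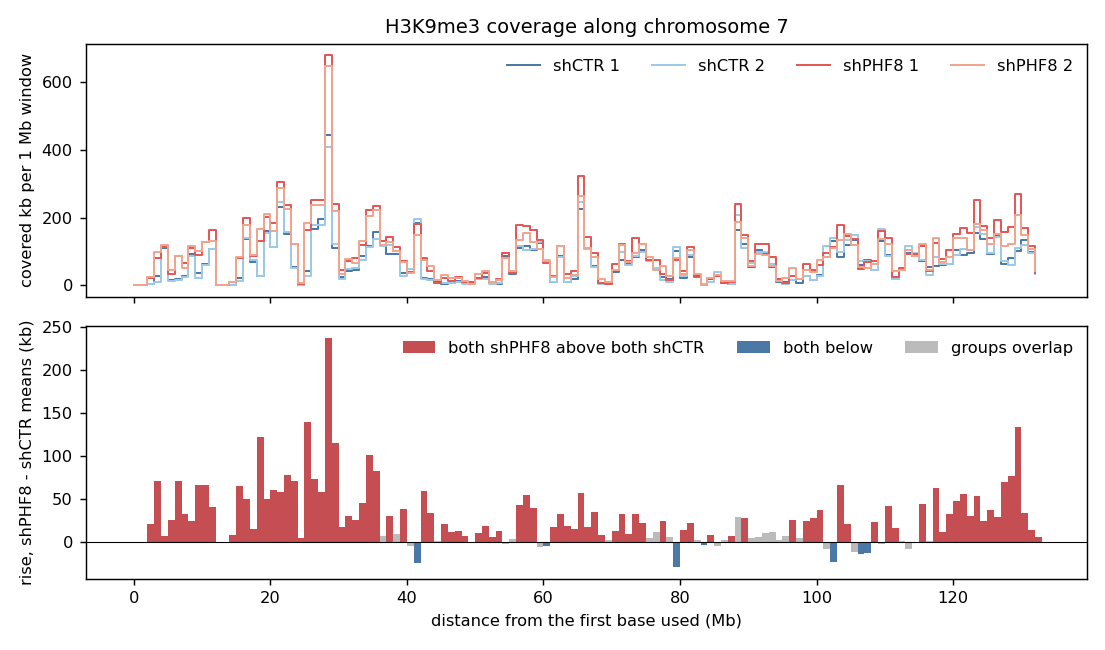
Covered kb in each 1 Mb window of chromosome 7 for the 4 libraries (top) and the difference between the shPHF8 and shCTR means (bottom), against the distance in Mb from the first base used. Red windows have both shPHF8 libraries above both shCTR libraries, blue windows both below, and in grey windows the groups overlap. The tallest rise, 237.8 kb, is the window that holds Tshz3.

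The largest rise lay around Tshz3, which encodes a zinc finger homeobox repressor of neural development, in a stretch with almost no other coding gene. The window from 36 to 37 Mb had 443 and 408 kb covered in shCTR and 680 and 647 kb in shPHF8, the second largest rise of the 2226 autosomal windows. Tshz3 is its only coding gene. From Zfp507 to Tshz3 (chr7:35803004-36698117, 895 kb), peaks covered 45.2 and 39.1% of the bases in shCTR and 69.7 and 68.6% in shPHF8. Between Tshz3 and Zfp536 (chr7:36773554-37472134, 699 kb), they covered 21.4 and 23.7% in shCTR and 45.3 and 38.1% in shPHF8. The body of Tshz3 itself (chr7:36698118-36773553) had 28.2 and 27.2 kb covered in shCTR and 20.2 and 30.2 kb in shPHF8, so there the groups overlapped. Peaks before Tshz3 were fewer and wider in the shPHF8 libraries. Their number went from 99 and 88 in shCTR to 66 and 83 in shPHF8 while the covered length went from 405 and 350 kb to 624 and 614 kb.

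**Figure D3:**
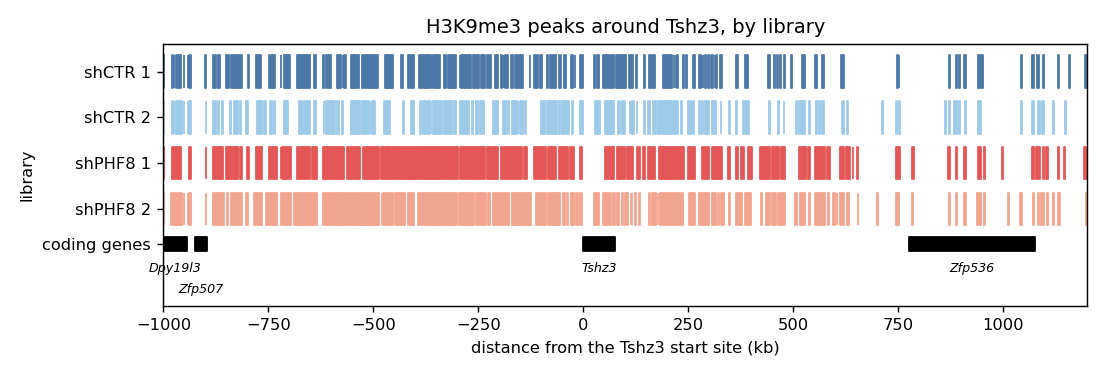
Peaks of the 4 libraries and the coding genes around Tshz3, against the distance in kb from its start site. Filled boxes are peaks. The stretch to the left of Tshz3 is 45.2 and 39.1% covered in shCTR and 69.7 and 68.6% covered in shPHF8, and the body of Tshz3 shows no such difference.

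Peaks of the 4 libraries were merged into regions where they overlap or touch, and the 5 regions with the largest rise among those with a peak in every library all lay between Zfp507 and Tshz3. The region chr7:36242401-36273200, 425 kb from the start of Tshz3, had 7200 and 2200 bases covered in shCTR and 30000 and 23800 in shPHF8. The neighbouring region chr7:36315001-36398600 had 54600 and 54800 bases in 11 and 11 peaks in shCTR, and 76200 and 77600 bases in 4 and 5 peaks in shPHF8. In the former, 23.4% of the bases are soft-masked repeats, and in the latter 19.6%, against 35.3% of the whole stretch of chromosome 7. The middle 200 bases of the former (chr7:36257701-36257900) and of the widest gained region (chr7:37124001-37124200) are shown on the plus strand, with soft-masked bases in capitals:
chr7:36257701-36257900: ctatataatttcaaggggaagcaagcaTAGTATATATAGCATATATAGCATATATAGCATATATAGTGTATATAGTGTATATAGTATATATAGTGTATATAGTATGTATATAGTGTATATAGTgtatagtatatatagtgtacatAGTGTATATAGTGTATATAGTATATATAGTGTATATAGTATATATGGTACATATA
chr7:37124001-37124200: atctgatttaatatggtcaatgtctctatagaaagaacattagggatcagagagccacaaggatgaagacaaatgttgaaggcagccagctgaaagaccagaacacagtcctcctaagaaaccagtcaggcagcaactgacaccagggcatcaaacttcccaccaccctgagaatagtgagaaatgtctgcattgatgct
Soft-masked bases, a short tandem repeat, fill 151 of the 200 in the first, and the second holds 0 soft-masked bases.

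The windows with the largest rise were of different kinds. Those from 36 to 37 Mb, from 37 to 38 Mb (109 and 122 kb in shCTR, 240 and 220 kb in shPHF8, at Zfp536, a zinc finger repressor of neuronal differentiation) and from 137 to 138 Mb hold few coding genes, and 22.5, 21.3 and 22.4% of their bases are soft-masked. The last, at Mgmt and Ebf3, went from 102 and 109 kb to 270 and 207 kb. Ebf3, a transcription factor of the early B cell factor family, went from 5045 and 6973 to 10573 and 7000 bases (3 kb flanks included), so the groups nearly touched there, and over its RefSeq extent they overlapped, at 10205 and 12330 against 16935 and 11205 bases. Glrx3, in the same window, was lower over its RefSeq extent, at 6000 and 5800 bases in shCTR against 4000 and 4000 in shPHF8. The other 3 windows are filled with related genes, and 54.4, 51.2 and 53.8% of their bases are soft-masked. The window from 33 to 34 Mb, with 12 secretoglobin genes and no other coding gene, went from 41.6 and 26.2 kb to 165 and 183 kb, a ratio of 5.13. The window from 26 to 27 Mb, with cytochrome P450 family 2 and Nlrp genes, went from 26.0 and 26.4 kb to 131 and 166 kb, a ratio of 5.66. The window from 42 to 43 Mb, with vomeronasal receptors and zinc finger genes, went from 115 and 112 kb to 223 and 205 kb.

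Of the 7 lower windows, the largest falls were smaller than these rises. From 87 to 88 Mb, at Tyr, Nox4 and Grm5, coverage went from 102 and 113 kb in shCTR to 74.8 and 80.2 kb in shPHF8. Inside coding gene bodies the mean fell by 30.9 kb, and outside them it rose by 1.0 kb. From 110 to 111 Mb it went from 130 and 140 kb to 112 and 109 kb. From 49 to 50 Mb, at Nav2 and the neural genes Dbx1 and Slc6a5, it went from 183 and 197 kb to 182 and 149 kb, and there the lowest shCTR and highest shPHF8 values differed by less than 1 kb. Across 129 full windows with a peak, the rise had a Spearman correlation of 0.27 with the shCTR level, 0.17 with the number of coding starts, 0.29 with GC content and 0.04 with the soft-masked share. Windows share their libraries, so these are descriptions.

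By repeat content, chromosome 7 differed most from the other autosomes in windows rich in repeats. In its 37 windows with at least 40% soft-masked bases, coverage went from 1.13 and 1.04 Mb in shCTR to 2.11 and 2.27 Mb in shPHF8, a ratio of 2.02, against 1.55 in 425 such windows elsewhere. In the 53 windows under 30% the ratio was 1.29, against 1.30 in 853 windows elsewhere, and in the 42 windows between these it was 1.38 against 1.30. The part that reads placed in repeats have in this result was not tested. By annotation, coding gene bodies rose by a ratio of 1.20 on chromosome 7 and 1.21 elsewhere, and bases outside all annotated genes by 1.61 (4.07 and 4.03 Mb against 6.74 and 6.29 Mb) and 1.41. Bases outside annotated genes make up 48.6% of the stretch and held 66.4% of its rise. On the other autosomes such bases make up 51.9% and held 62.0%.

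Gene clusters were set as neighbouring members of a family, at most 500 kb apart, with at least 4 genes. Chromosome 7 has 33 of them, 29 with a peak, and some overlap because families are interspersed. Covered length over the whole cluster was higher in both shPHF8 libraries in 23 of the 29 (79.3%), against 75.0% of 56 clusters on the other autosomes. In 1 (3.45%, against 3.57%) both had fewer, and in the other 5 the groups overlapped. The cluster of secretoglobins, small secreted proteins that include pheromone carriers, runs from Scgb2b2 to Scgb1b30 (chr7:31290508-34100837, 29 genes) and went from 69.4 and 46.8 kb in shCTR to 245 and 280 kb in shPHF8. That of cytochrome P450 family 2, liver and airway enzymes that oxidise steroids and foreign compounds, runs from Cyp2s1 to Cyp2t4 (chr7:25802475-27158668, 13 genes) and went from 52.2 and 51.4 kb to 171 and 225 kb. The Psg and Ceacam genes, adhesion and placental glycoproteins (chr7:16671331-18821607, 21 genes), went from 128 and 90.2 kb to 236 and 255 kb. In each of these clusters the lowest shPHF8 value lay well above the highest shCTR value. With every library scaled to the same autosomal covered length, a setting chosen after seeing the data, 16 clusters were higher (55.2%, against 30.4% elsewhere), 2 were lower (6.90%, against 19.6%) and 11 overlapped, and these 3 clusters were among the 16.

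Among receptor clusters, the span of the largest of type 1 vomeronasal receptors, which detect pheromones (Vmn1r91 to Vmn1r183, chr7:20099680-24063554, 65 genes), went from 22.6 and 13.0 kb to 87.6 and 96.4 kb. Most of this rise lay in the window from 23 to 24 Mb, which rose by 64.7 kb, and each window from 20 to 23 Mb rose by at most 7.8 kb. That window also holds Nlrp5 and Nlrp4e, which with their flanks rose by 33422 and 9200 bases. The rise of this span and that of these Nlrp genes therefore share bases. The type 2 receptors from Vmn2r57 to Vmn2r63 (chr7:41395945-42933822) went from 169 and 157 kb to 285 and 279 kb, and share part of their span with the zinc finger cluster from Zfp141 to Zfp819 (chr7:42473386-43618285), which went from 201 and 180 kb to 333 and 320 kb. The Mas-related receptors of sensory neurons and mast cells (chr7:47185707-48643811) went from 33.6 and 28.0 kb to 73.8 and 74.4 kb. In the olfactory receptor cluster of 129 genes (Olfr543 to Olfr692, chr7:102476579-105369355), the shPHF8 libraries were less alike, with 28.4 and 22.8 kb against 41.2 and 84.6 kb. The sulfotransferases from Sult2a5 to Sult2a7 (chr7:13623967-14494230), which sulfate steroids and bile acids, went from 13.0 and 9.0 kb to 54.8 and 60.4 kb. Not every zinc finger cluster moved, since that from Zfp551 to Zbtb45 (chr7:12415153-13010034), well covered in every library, had 97.2 and 102 kb in shCTR and overlapping levels of up to 105 kb in shPHF8, and was lower when scaled, at a ratio of 0.78. Scaled, the zinc finger clusters Zfp180 to Zfp526, Zfp607b to Zfp36, Zfp84 to Zbtb32 and Zfp553 to Zfp646 overlapped between the conditions.

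**Figure D4:**
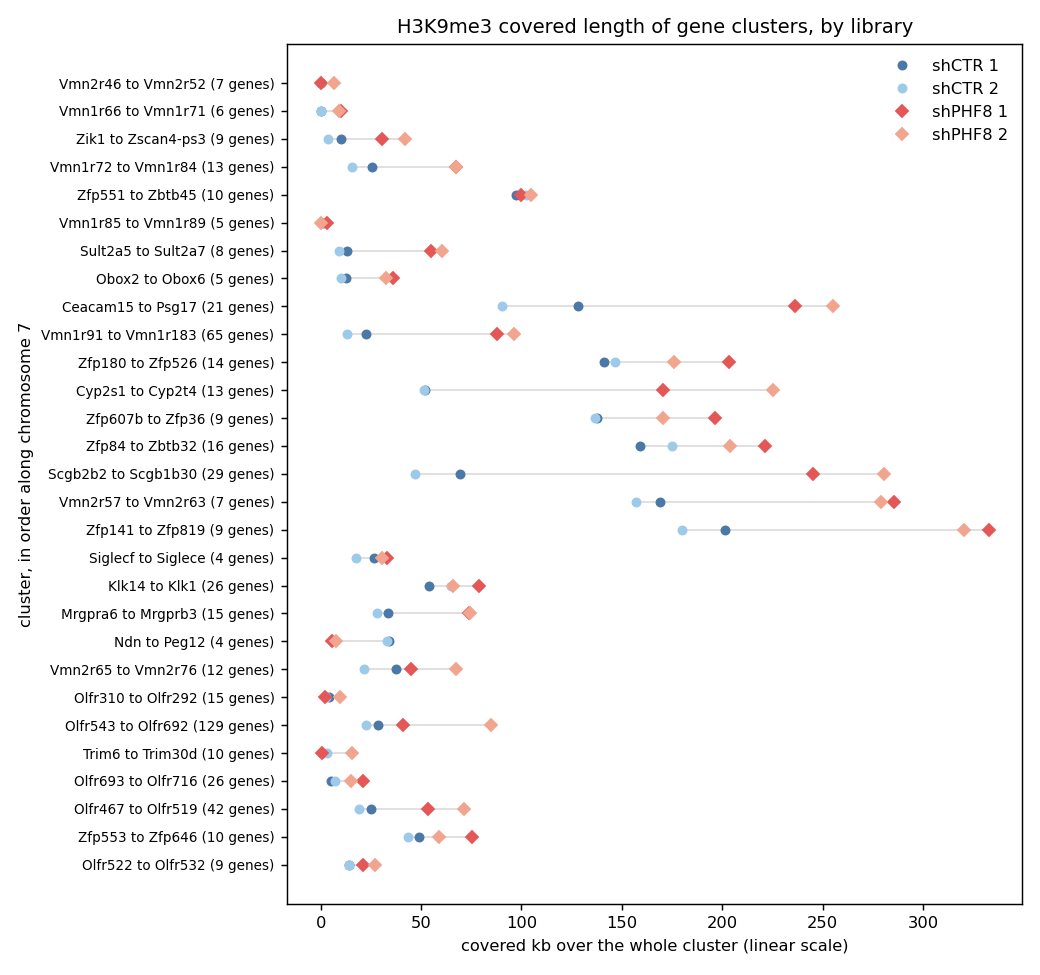
Covered kb over each of the 29 gene clusters with a peak, in their order along chromosome 7, with circles for the shCTR and diamonds for the shPHF8 libraries on a linear axis. Grey lines join the lowest and the highest library. In 23 clusters both diamonds lie to the right of both circles, and from Ndn to Peg12 both lie to the left.

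The bodies of the family's own genes held a small part of the rise in the largest clusters, where they also take up a small part of the span. Of the mean rise of 205 kb in the secretoglobin cluster, 8.97 kb lay in the bodies of secretoglobin genes, which take up 63.8 of its 2810 kb. The Psg and Ceacam cluster had 10.3 of 136 kb in the bodies of its genes, which take up 283 of 2150 kb, and the cytochrome P450 cluster 24.5 of 146 kb in 215 of 1356 kb. The cluster from Vmn1r91 to Vmn1r183 had 0.0 of 74.2 kb in 175 of 3964 kb. In the kallikrein cluster, by contrast, 9.60 of 12.9 kb lay in gene bodies, which take up 139 of 539 kb, and in the Obox cluster 12.5 of 23.0 kb in 267 of 451 kb. The groups of the kallikrein cluster nearly touched, at 54.0 and 65.0 kb in shCTR and 79.0 and 65.8 kb in shPHF8. Scaled, they overlapped. Members of these families are close copies of each other, and how reads that match several copies were placed is not given in the sources used here, so the position of a peak within a cluster is uncertain.

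Coding genes were compared over the gene and 3 kb on each side. Of 1764 coding genes, 879 had a peak in some library, 263 were higher (29.9%, against 27.5% elsewhere) and 116 were lower (13.2%, against 12.8%). With gene extents from RefSeq in place of GENCODE M21, a setting chosen after seeing the data, 260 of 856 were higher and 113 were lower, against 27.9% higher elsewhere. Scaled to the same autosomal covered length, 154 were higher (17.5%, against 14.4% elsewhere) and 244 lower (27.8%, against 29.4%). A gene can have a peak through 1 condition alone, so these counts and those of the families below describe the genes with a peak and do not support a direction. Of 90 zinc finger genes, which include the KRAB family that directs H3K9me3 to transposons, 65 had a peak, 26 were higher and 2 were lower. On the other autosomes 100 of 242 zinc finger genes with a peak were higher and 22 were lower. Zfp936 went from 49000 and 40200 bases to 66509 and 58400, and Zfp30 from 3600 and 1502 to 9800 and 9902, while Zfp110 went from 21017 and 21017 to 19617 and 19417. Over all zinc finger genes together the ratio was 1.26 on chromosome 7 and 1.24 elsewhere, both below the ratio of 1.32 of the other autosomes, and scaled, 11 were higher and 17 lower, so their direction turned. Trim28, the corepressor of KRAB proteins, had no peak in any library.

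Among enzymes and secreted proteins, 7 of the 13 cytochrome P450 genes with a peak were higher and 1 was lower. On the other autosomes 6 of 18 cytochrome P450 genes with a peak were higher and 1 was lower. Of all coding genes with a peak on chromosome 7, 29.9% were higher and 13.2% lower. Cyp2b19 went from 630 and 1230 bases to 8230 and 15889, and Cyp2b23 from 0 and 0 to 6811 and 4974, whereas Cyp2r1, the vitamin D hydroxylase, went from 5600 and 6600 to 2400 and 3800. The counts of cytochrome P450 genes on chromosome 7 were the same when scaled. Of the secretoglobins, 5 of 12 with a peak were higher (3 when scaled, and 7 of 14 with RefSeq extents) and none was lower, and Scgb1b3 went from 1609 and 1609 bases to 4809 and 5209. Among the Psg and Ceacam genes 8 of 14 were higher (7 when scaled) and none was lower, with Psg18 at 0 and 0 bases in shCTR against 3200 and 7209 in shPHF8. Of the sulfotransferases 3 of 5 were higher, and Sult2a5 went from 0 and 0 to 3400 and 3000 bases. Of the kallikreins, secreted serine proteases, 2 of 10 were higher and 1 was lower, and scaled 1 was higher and 1 lower. Klk12 went from 0 and 0 to 7000 and 6000 bases and Klk8 from 1600 and 1600 to 0 and 0. The Siglec genes, lectins of immune cells, had 3 of 4 higher and 1 when scaled. The beta globins and the serum amyloid A genes had no peak in any library.

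Of the Nlrp genes, several of which act in the oocyte, all 5 with a peak were higher, also when scaled, and 4 with RefSeq extents. Nlrp5 went from 6400 and 2400 bases in shCTR to 36122 and 39522 in shPHF8, the clearest separation among them, and Nlrp4e from 12200 and 6600 to 21600 and 15600. On the other autosomes 1 of 2 Nlrp genes with a peak was higher. Among all coding genes with a peak on chromosome 7, 29.9% were higher, and 30.4% with RefSeq extents. The scaled share is given with the coding genes above. Nlrp9c went from 5600 and 5400 to 28000 and 18500, but over its shorter RefSeq extent it had 0, 310, 12400 and 300 bases in shCTR 1, shCTR 2, shPHF8 1 and shPHF8 2. Of the Obox homeobox genes of the early embryo, 2 of 5 were higher with GENCODE extents and 0 of 2 with RefSeq extents, since the GENCODE records of Obox1 and Obox3 are 17.5 and 11.1 times as long.

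Few receptor genes themselves held a peak. Of 92 type 1 vomeronasal receptors, 9 did and 4 were higher, of 42 of type 2, 11 did and 3 were higher, and of 226 olfactory receptors, 36 did, with 6 higher and 3 lower. With RefSeq extents these became 1 of 4, 2 of 9 and 2 of 21 higher. On the other autosomes, with GENCODE extents, 2 of 24, 4 of 20 and 26 of 154 such genes with a peak were higher. The share of all coding genes with a peak on chromosome 7 that were higher was 29.9%, and 30.4% with RefSeq extents. Vmn2r61 went from 0 and 0 to 4548 and 3400 bases and Olfr543 from 1200 and 1200 to 5200 and 3200, while Olfr525 went from 2000 and 3200 to 0 and 0. Of the Mas-related receptors 1 of 3 was higher (0 of 2 with RefSeq extents), and of the Trim genes, ubiquitin ligases, 1 of 7 (Trim3, 0 and 0 against 3800 and 3600 bases). Elsewhere, 10 of 37 Trim genes with a peak were higher and 6 lower, and 0 of 1 Mas-related receptors with a peak was higher.

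Among 19 neural genes with a peak, 6 were higher (31.6%, beside 29.9% of all coding genes with a peak on the chromosome) and 5 lower. Scaled, 3 were higher and 9 lower. Nell1, a secreted protein with thrombospondin and EGF-like domains, went from 22800 and 19400 bases in shCTR to 82937 and 71200 in shPHF8, and Ntrk3, the neurotrophin-3 receptor, from 27200 and 25000 to 46800 and 32000. Syt9, a synaptotagmin, went from 0 and 1600 to 10000 and 7600. The metabotropic glutamate receptor gene Grm5 went the other way, from 105800 and 107600 to 81400 and 76800, as did Nav2, a neuron navigator, from 99000 and 105400 to 79200 and 74800. Of the 3 GABA A receptor subunit genes, all with a peak, 1 was lower, Gabrg3, from 4400 and 2200 bases to 0 and 0. Over the 3 genes together the groups overlapped, at 5.8 and 6.4 kb in shCTR and 7.0 and 0.0 kb in shPHF8. Of the genes of amino acid transport and metabolism 1 of 5 with a peak was higher (Prodh2, 2800 and 2400 against 7800 and 4600 bases), and scaled 1 was higher and 2 lower. Of the chromatin genes with a peak, Eed, a core subunit of Polycomb repressive complex 2, was lower, from 5147 and 5347 bases to 2347 and 747, and Chd2 did not separate the groups.

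Other genes with large rises were Mgmt, a DNA repair methyltransferase, from 24800 and 24200 bases to 74400 and 61000, Apba2, a synaptic adaptor, from 40600 and 37400 to 86200 and 63495, and the sulfotransferase gene Chst8, from 18711 and 25200 to 49000 and 43511. In Galnt18, a glycosyltransferase, the rise rested on shPHF8 replicate 1, with 44000 and 40340 bases against 78200 and 45600, and in Cpxm2 the groups nearly touched, at 27000 and 40739 against 52939 and 43339. Fgfr2, a fibroblast growth factor receptor, had the largest rise by its GENCODE record, which is 28.4 times as long as that of RefSeq (chr7:130162451-130266808). Over the RefSeq extent it went from 5400 and 7000 bases to 19000 and 14800, and over the GENCODE record its mean rise turned when scaled. The largest falls, beside Grm5 and Nav2, were in Xylt1, which starts proteoglycan chains, from 88400 and 101180 to 68800 and 62200, Spon1, an extracellular matrix protein, from 66003 and 76003 to 53603 and 52203, and Prkcb, protein kinase C beta, from 57800 and 58400 to 45400 and 42400.

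The single cluster with fewer covered bases in both shPHF8 libraries was that of the imprinted, paternally expressed genes Ndn, Magel2, Mkrn3 and Peg12 (chr7:62346569-62464510, 118 kb), described here in more detail after its values were seen. Coverage went from 34.1 and 32.9 kb in shCTR to 5.51 and 7.51 kb in shPHF8, and the number of peaks from 14 and 13 to 3 and 4. Most of the difference lay in peaks more than 2 kb from the 4 start sites, which numbered 10 and 9 in shCTR and 0 and 0 in shPHF8. At the start of Peg12 the covered bases within 2 kb were nearly alike, at 1600 and 1800 in shCTR and 1800 and 1800 in shPHF8. At the start of Ndn they were 769 and 569 against 569 and 369, and at that of Mkrn3 3400 and 3600 against 2000 and 1800. At Magel2 the shPHF8 libraries differed from each other, with 3791 and 2600 bases in shCTR against 0 and 2410 in shPHF8. The window from 62 to 63 Mb as a whole, at 86.4 and 94.8 kb in shCTR and 95.4 and 80.4 kb in shPHF8, did not separate the groups. Of the 8 Prader-Willi/Angelman genes, Mkrn3 and Peg12 were lower with their flanks, Atp10a was higher (7400 and 6600 against 7800 and 9600 bases, turning when scaled), and Ube3a, Snrpn, Snurf, Ndn and Magel2 did not separate the groups. Among all coding genes with a peak on chromosome 7, 29.9% were higher and 13.2% lower. Scaled, 0 of the 8 genes were higher and 4 were lower, and the scaled shares of all coding genes are given above.

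**Figure D5:**
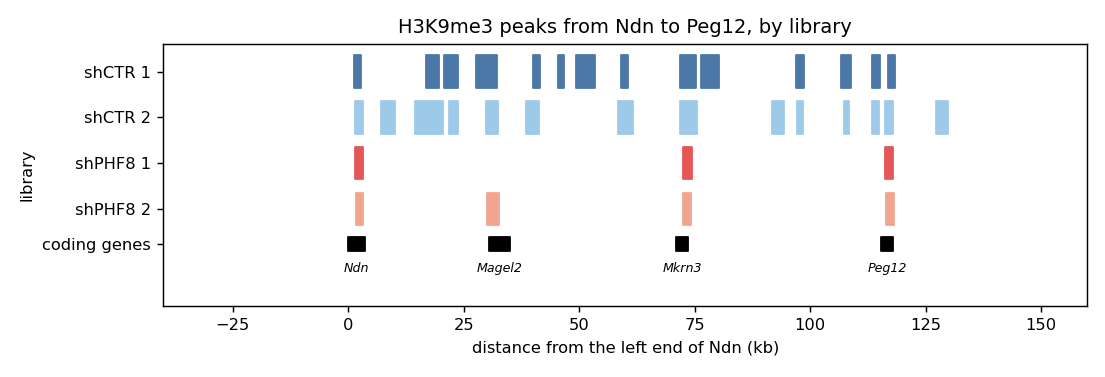
Peaks of the 4 libraries and the coding genes from Ndn to Peg12, against the distance in kb from the left end of Ndn. Filled boxes are peaks. The cluster holds 14 and 13 peaks in shCTR and 3 and 4 in shPHF8, and the peaks at Ndn, Mkrn3 and Peg12 are present in all 4 libraries.

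Start sites of coding genes were rarely covered. Of 1764, peaks covered 95 and 115 in shCTR and 115 and 125 in shPHF8, 56 of them in all 4 libraries. Those covered in both shPHF8 libraries and in neither shCTR library numbered 13 (0.737%, against 0.558% elsewhere), and those in the opposite case 12 (0.68%, against 0.729%). Among the 13, Ceacam5, Psg28, Nlrp5, Cyp2a4, Cyp2b19, Scgb2b3, Scgb1b3, Zfp936 and Klk12 belong to the families described above, and Ano5, Qprt and 9130019O22Rik do not. The 12 were Spint2, Kcna7, Abcc8, Csrp3, Slc17a6, Svip, Sema4b, P4ha3, St5, Akip1, Nsmce4a and Cpxm2, and none of these does. RefSeq windows with a start within 1 kb matched 10 of the 13, 9 of the 12 and 46 of the 56. In the 250 bases before the start, the gained starts had a median of 2.5 CG dinucleotides (0 to 13), the lost starts 13.0 (1 to 25) and the shared starts 11.0 (0 to 32), against 4.0 over all 2475 windows of the stretch. Among the gained starts Ano5 stood apart with 13, and among the lost ones Kcna7 with 1. Such a count is a description of these letters only.

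Merged across libraries, the peaks formed 4292 regions on chromosome 7. A region was gained when both shPHF8 libraries and neither shCTR library had a peak in it, and lost in the opposite case. There were 247 gained regions (5.75%, against 4.21% elsewhere) and 218 lost ones (5.08%, against 5.02%). Without shPHF8 replicate 1 there were 832 gained regions (19.2%, against 15.4%), and leaving out any other library gave 384 to 448. Gained regions had a median width of 4600 bp and lost ones of 2600 bp. Regions with a peak in every library held 55.0% of the rise of the chromosome, and of these 1591, 643 were higher (40.4%, against 39.0%) and 92 were lower (5.78%, against 5.01%). Gained regions held 25.2% of the rise, lost regions -12.6%, and regions with a peak in any other set of libraries 32.4%. On the other autosomes, regions with a peak in every library held 63.0% of the rise, gained ones 21.2%, lost ones -15.3% and the rest 31.1%. Soft-masked bases made up 35.2% of gained, 30.4% of shared and 27.3% of lost regions.

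The widest gained region, chr7:37117801-37130400, overlaps the lincRNA gene Gm28078 and had 12600 and 4200 bases covered in shPHF8, so it was wide in replicate 1 only. The others were chr7:123818201-123830400, outside annotated genes and 152 kb from the start of Hs3st4 (6400 and 8400 bases), and chr7:14574001-14586000 at the pseudogene Nlrp5-ps (7400 and 8200 bases). Of the widest lost regions, chr7:117463401-117469800 lies within Xylt1 (4200 and 5200 bases in shCTR), chr7:110716001-110724200 lies 44.0 kb from the start of Ampd3 (3000 and 7000 bases), and chr7:114648601-114659200 lies 12.2 kb from that of Calca, the calcitonin gene (4400 and 9600 bases).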

How the data were processed

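Neural stem cells of the fetal mouse cortex carried shCTR or shPHF8, with 2 H3K9me3 ChIP libraries each. Per the labels, the authors placed 1 read per fragment on the mm10 genome. The methods name SOAP2, while the submitters' processing notes list Bowtie2 2.3.5.1, SAMtools 1.9 and deepTools without a role. Broad peaks were called per library with SICER2. The window, gap, false discovery rate, use of the inputs and treatment of reads with several matches are not given in the sources used here. The deposited lists hold peak positions in bp and no score, count or read depth, so no counting interval can be given from them. The read totals that the study gives for its libraries were not used here. All starts and widths are multiples of 200 bp, and the closest peaks of a list are 800 bp apart, so a wider peak can be a stronger mark or neighbouring islands joined. Lists held 44318 to 55557 peaks.

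From these lists, covered bases were computed in Python 3.11.15 (numpy 2.4.6, pandas 2.3.3, scipy 1.17.1, matplotlib 3.10.9) over chromosomes, windows of 1 Mb, bins of 30 kb, merged regions, GENCODE M21 coding genes with 3 kb on each side, gene clusters and start sites. The stretches from 3 to 8 Mb and the last 5 Mb of each autosome were left out. Values are compared by whether both shPHF8 libraries lay above or below both shCTR libraries, with no test. The scripts were tested on simulated data. Named were the 6 windows with the largest rise and the 3 with the largest fall, the 3 widest gained, 3 widest lost and 5 most risen shared regions, the 10 genes with the largest rise and the 5 with the largest fall, and up to 3 risen members and 1 fallen member of each of 21 gene lists. Ebf3, Glrx3, the genes at gained and lost starts and the values from Ndn to Peg12 were added after their values were seen. A gained start is counted but not named here. The chromosome, the lists and the rules were chosen with earlier results of these data known. Sequences come from RefSeq (GRCm38.p6) and the genome of the same build. Alternatives were scaling to equal autosomal covered length, peaks of at least 3000 bp, other window sizes, a gap between the groups, merging peaks within 5 kb, at least 50% of a region covered, other gene flanks, the whole chromosome, leaving out each library, and the replicate block. Gene extents from RefSeq, scaled lists and clusters, and crossed pairs were added after seeing the data.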

Additional observations from a re-analysis of the deposited data

How the results depend on the processing

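Peak lists without heights or read depth limit every value to covered length, and no test was run because the contrast chose the chromosome. Counts below without a share for the other autosomes compare settings on chromosome 7 alone and show no trait particular to it. Scaled to equal autosomal covered length, the ratio of chromosome 7 became 1.06 and that of the other autosomes 0.996, below 1, windows numbered 57 higher and 33 lower, bins 553 and 502, and genes 154 and 244, while the mean rise turned to -423.8 bases in Atp10a and -30840 in Fgfr2. With only peaks of at least 3000 bp, the ratios were 1.94 and 1.80, with 2 windows, 75 bins and 33 genes lower, 371 regions gained and 44 lost, and the window from 49 to 50 Mb turned to a rise of 7300 bases. Windows of 2 Mb gave 51 higher and 2 lower, and windows of 500 kb gave 160 and 23. With a gap of at least 10 kb between the groups 64 windows were higher (49.2%, against 38.9% elsewhere) and 2 were lower. With a gap of at least 3000 bases 266 bins were higher and 39 lower. Merging peaks within 5 kb left 155 gained and 124 lost regions, and asking for 50% of a region to be covered gave 452 gained. Without the flanks Klk14 turned to -140.5 bases. Beyond that, the cause was not tested, apart from fewer peaks, windows or regions where the setting itself gives fewer.

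Leaving out 1 library at a time, the ratio of chromosome 7 was 1.34 to 1.46, that of the other autosomes 1.24 to 1.39 and the ratio between them 1.05 to 1.08. Higher windows numbered 100 to 104, lower windows 8 to 17, higher bins 1066 to 1323, lower bins 391 to 518, higher genes 333 to 416, lower genes 175 to 225, gained regions 384 to 832, lost regions 315 to 564 and higher clusters 23 to 27. With 3 libraries the call is easier to meet. Leaving out shPHF8 replicate 1 gave 832 gained regions, 1323 higher bins and 17 lower windows, leaving out shPHF8 replicate 2 gave 416 higher genes, and leaving out shCTR replicate 1 gave 518 lower bins, 225 lower genes and 564 lost regions.

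The labels number the libraries 1 and 2 in each condition. Over 130 windows deviations from the condition means correlated at -0.35 between libraries with the same number. With 2 libraries per condition, the value for libraries with different numbers is the same with the opposite sign. Whether libraries with the same number share a batch or culture can therefore not be told from it. With the replicate block the ratios were 1.40 and 1.31, with 1.07 between them, windows 95 higher and 8 lower, bins 995 and 315, and genes 306 and 145. Crossing the pairs gave 103 windows higher (79.2%, against 72.5% elsewhere) and 10 lower, 995 and 322 bins, and 308 and 143 genes. Of 59 named genes, all kept their direction and call under both pairings and without each library. The rule that picked them makes this certain, since their groups do not overlap, so it shows nothing further. The other settings could change a call. Scaled, 8 lost the call (Cd33, Cpxm2, Galnt18, Klk14, Ntrk3, Siglecg, Zfp936 and Zfp975) and 2 turned. With peaks of at least 3000 bp, 17 lost it, among them Nav2, Eed, Gabrg3, Spon1, Prkcb, Prodh2, Syt9 and Scgb2b3. Without flanks 10 lost it and 1 turned, and with flanks of 10 kb 3 lost it.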
